A study of Mus musculus with 9 samples.

Results

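The 5 genes Cdh5, Sele, F8, Gpihbp1 and Npr1, best known from the lining of blood vessels, were followed across 9 RNA libraries of LSK cells. This bone marrow fraction, sorted for Sca1 and cKit and against lineage markers, contains stem cells and multipotent progenitors. They are 5 of 14940 genes in the deposited table and were named because their values were low after immunization, so the difference between EAE and naive mice chose them, and its values are given here as a description that supports nothing further. All animals were C57BL/6 mice, with no transgene or deletion named in the labels. The groups were naive mice (day 0), mice at day 3 after immunization for experimental autoimmune encephalomyelitis (EAE), a model of multiple sclerosis, and EAE mice that were also given SR59230A, which blocks the beta 3 adrenergic receptor, for 3 days. Each group held 3 libraries. Immunization used complete Freund's adjuvant with residues 35 to 55 of myelin oligodendrocyte glycoprotein. No group received adjuvant alone, and whether untreated EAE mice were given a vehicle is not stated.

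Endothelial cells form the inner wall of vessels and of the bone marrow sinusoids. They hold together through VE-cadherin, capture passing white blood cells through selectins, release coagulation factors, and carry enzymes and hormone receptors on the surface that faces the blood. They arise from the same embryonic precursors as blood stem cells, and both lineages share a set of surface and transcription factor genes through adult life. Mature endothelial cells are not the cells that the LSK gate is meant to collect.

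The deposited values are whole numbers that the authors adjusted, not read counts, so depth is unknown. They summed to between 8641735 and 10387955 per library and were scaled between libraries before use. Differences were tested over 13018 genes on log2(value + 1) with limma, and a gene was called at a Benjamini-Hochberg adjusted p under 0.05. This scale understates fold changes of low genes. A pair of independent linear relations ties the 9 libraries together within the groups, so the deposited replicates are not fully independent of each other. The gate genes were well expressed: Kit (cKit) ranged from 4818 to 7261, Ly6a (Sca1) from 1412 to 2514 and Ptprc (the pan-leukocyte marker CD45) from 1795 to 2748. They were not alike between groups. In EAE against naive mice Kit was called lower by limma (log2 fold change -0.44 ± 0.09 SE, adjusted p = 0.0106). Ly6a was called higher (0.45 ± 0.12, adjusted p = 0.0255), a call that depended on scaling. Among all tested genes 5.32% were called lower and 8.62% higher.

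All 5 genes were lowly expressed, and in every one the highest library was naive replicate 3, followed by naive replicate 1. Summed over the 5 genes, the scaled value was 128, 60.7 and 316 in naive replicates 1, 2 and 3. EAE mice had 53.9, 26.5 and 8.29, and treated EAE mice 14.1, 38.3 and 30.8. The naive libraries did not overlap with the immunized ones in this sum, with naive replicate 2 only slightly above EAE replicate 1, while the EAE and treated EAE libraries overlapped. In bulk RNA, fewer cells of a type and less RNA per cell cannot be told apart.

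**Figure D1:**
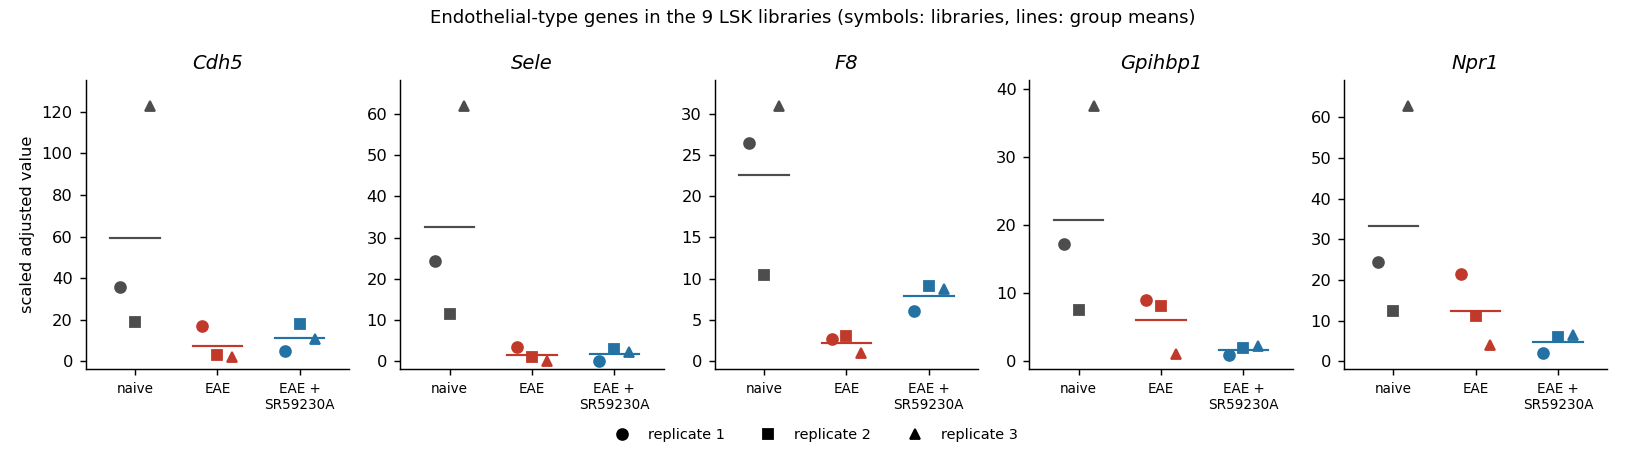
Scaled adjusted values (linear axis) of the 5 genes in each of the 9 libraries, with 1 symbol per library and a line at each group mean. Naive replicate 3 is the highest library in every panel, for example 123 for Cdh5. Naive replicate 2 lies close to or within the values of immunized mice except for Sele, where it is 11.4 against at most 3.59.

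Cdh5 encodes VE-cadherin, the adhesion molecule of endothelial adherens junctions. Naive mice had 35.6, 19.0 and 123, EAE mice 17.1, 3.05 and 2.07, and treated EAE mice 5.04, 18.1 and 11. Every immunized library lay below every naive one, but treated replicate 2 and naive replicate 2 differed by less than 1 unit. The group means were 59.2 ± 55.9 in naive, 7.39 ± 8.38 in EAE and 11.4 ± 6.56 in treated mice (SD, n = 3 each). The log2 fold change of EAE against naive was -2.90 ± 0.80 (SE).

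Sele encodes E-selectin, which slows leukocytes on the vessel wall and which bone marrow endothelium makes without inflammation. Its values were 24.4, 11.4 and 62.0 in naive, 3.59, 1.02 and 0 in EAE and 0, 3.02 and 2.20 in treated EAE libraries. The naive libraries lay clearly above all others, and 2 immunized libraries were listed at 0. The log2 fold change was -3.71 ± 0.87 in EAE against naive mice. With so many values near 0 its size depends on the pseudocount, at -5.21 with 0.1 and -1.70 with 10 in place of 1. The bases before the RefSeq start of Sele (GRCm38.p6, chr1:164047984-164048233, plus strand) are shown because this gene had the largest fitted difference of the 5. Capitals mark, in order, matches to an ATF-type site (TGACATCA), a kB-type site, an ETS-type core (AGGAAG) and a TATA box (TATAAA).
Sele: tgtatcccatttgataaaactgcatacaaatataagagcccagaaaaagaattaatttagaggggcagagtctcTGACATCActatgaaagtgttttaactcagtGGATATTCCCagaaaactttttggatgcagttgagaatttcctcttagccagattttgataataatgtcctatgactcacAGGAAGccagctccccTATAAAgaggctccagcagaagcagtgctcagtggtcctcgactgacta

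Both strands were searched, and the classical kB site and the GATA-type core (AGATAA) had no match in this window. Over the same 250 bases of 27025 genes, the ATF-type site was found in 3.02%, the matched kB form in 1.09%, the ETS-type core in 29.2%, the TATA box in 13%, the classical kB site in 1.4% and the GATA-type core in 10.3%. The letters were chosen after the sequence had been read, and a match describes the sequence without showing that a factor binds.

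F8 encodes coagulation factor VIII, which is made by sinusoidal endothelial cells. It stood at 26.4, 10.4 and 31.0 in naive, 2.69, 3.05 and 1.04 in EAE and 6.04, 9.07 and 8.80 in treated EAE libraries. F8 depended least on naive replicate 3, which was 1.17 times naive replicate 1. The log2 fold change of EAE against naive was -2.80 ± 0.57, and the treated libraries formed a middle level that overlapped with neither of the other groups.

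Gpihbp1 encodes the protein that carries lipoprotein lipase across capillary endothelium and anchors it there. The naive values were 17.3, 7.59 and 37.5, the EAE values 8.98, 8.14 and 1.04 and the treated EAE values 1.01, 2.01 and 2.20. EAE and naive libraries overlapped, since EAE replicates 1 and 2 lay above naive replicate 2, whereas all treated libraries lay below the naive ones. The log2 fold change was -1.67 ± 0.78 in EAE and -2.77 ± 0.77 in treated EAE against naive mice.

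Npr1 encodes the receptor for atrial natriuretic peptide, a guanylyl cyclase that raises cyclic GMP in vessel cells. It stood at 24.4, 12.3 and 62.9 in naive, 21.5, 11.2 and 4.15 in EAE and 2.01, 6.04 and 6.60 in treated EAE libraries. EAE replicate 1 was close to naive replicate 1 and above naive replicate 2, and EAE replicate 2 was only slightly below naive replicate 2. The description of this gene as low after immunization thus rests mainly on the high naive replicate 3, on EAE replicate 3 and on the treated mice. The log2 fold change was -1.31 ± 0.71 in EAE and -2.36 ± 0.70 in treated EAE against naive mice. The Npr1 sequence (GRCm38.p6, chr3:90465929-90466116, minus strand) is shown beside that of Sele for contrast, without the 62 bases next to the RefSeq start, which another annotated transcript covers. It held 67% G and C, against 40.4% for Sele, and of the 6 searched motifs only the ETS-type core (capitals) matched, a match found in 22.1% of genes over the same 188 bases.
Npr1: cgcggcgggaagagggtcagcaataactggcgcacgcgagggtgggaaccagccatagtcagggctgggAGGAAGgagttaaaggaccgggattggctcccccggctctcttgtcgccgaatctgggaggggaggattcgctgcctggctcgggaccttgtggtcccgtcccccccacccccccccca

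In EAE against naive mice, 5.32% of all tested genes were called lower by limma with Benjamini-Hochberg adjustment, and 3 of the 5 genes (Cdh5, Sele and F8) were among them. The count was 2, without Cdh5, when naive replicate 1 or 3 or EAE replicate 2 or 3 was left out, and 2, without Sele, with a pseudocount of 0.1. Since this contrast chose the genes, nothing is read from these counts. Of all called genes 61.8% were higher, a share that was 40.4% with upper-quartile scaling. Groups that did not overlap, with EAE lower, were found for Cdh5, Sele and F8 and for 19.1% of all tested genes. The comparison of treated EAE with naive mice shares the naive libraries that chose the genes. There 3 of the 5 (Sele, Gpihbp1 and Npr1) were called lower against 5.04% of all tested genes. That count was 1 (Sele) when naive replicate 1 or 3 or treated replicate 1 or 2 was left out, and Npr1 also lost its call without treated replicate 3. Sele lost its call there with a pseudocount of 0.1. All 5 lay below every naive library, as did 23.9% of all tested genes.

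**Figure D2:**
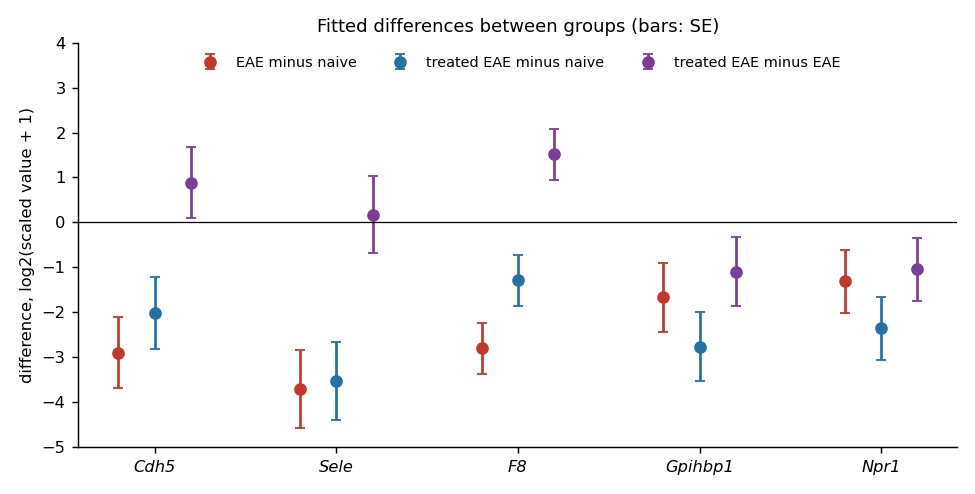
Fitted differences between groups on the log2(scaled value + 1) axis for the 5 genes, with SE bars. Differences from naive mice are below 0 for all 5 genes in both immunized groups, from -1.31 for Npr1 in EAE to -3.71 for Sele in EAE, while treated EAE minus EAE lies on either side of 0.

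The weight of single naive libraries was large. Naive replicate 3 held 69.3% of the naive total of Cdh5, 63.4% of that of Sele, 63.1% of that of Npr1, 60.1% of that of Gpihbp1 and 45.6% of that of F8. Without it, the ratio of the naive to the EAE mean went from 8.0 to 3.69 for Cdh5, from 21.2 to 11.7 for Sele and from 10 to 8.16 for F8. For Gpihbp1 the ratio went from 3.44 to 2.06 and for Npr1 from 2.70 to 1.49. Naive means thus stayed above EAE means for each gene, with the smallest ratio for Npr1.

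Leaving out libraries of either group moved the fitted values as well. Without naive replicate 3 the log2 fold change of Cdh5 was -2.15 ± 0.75 and that of Npr1 -0.71 ± 0.68. Without EAE replicate 3, the lowest EAE library for all 5 genes, the value was -2.41 ± 0.85 for Cdh5, -0.92 ± 0.64 for Gpihbp1 and -0.74 ± 0.68 for Npr1. Without naive replicate 2 or without EAE replicate 1, in contrast, all 5 differences were larger, at -4.25 ± 0.88 and -4.27 ± 0.86 for Sele. Without EAE replicate 1 the ratio of the naive to the EAE mean was 23.1 for Cdh5, 64.0 for Sele, 11.1 for F8, 4.53 for Gpihbp1 and 4.33 for Npr1.

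**Figure D3:**
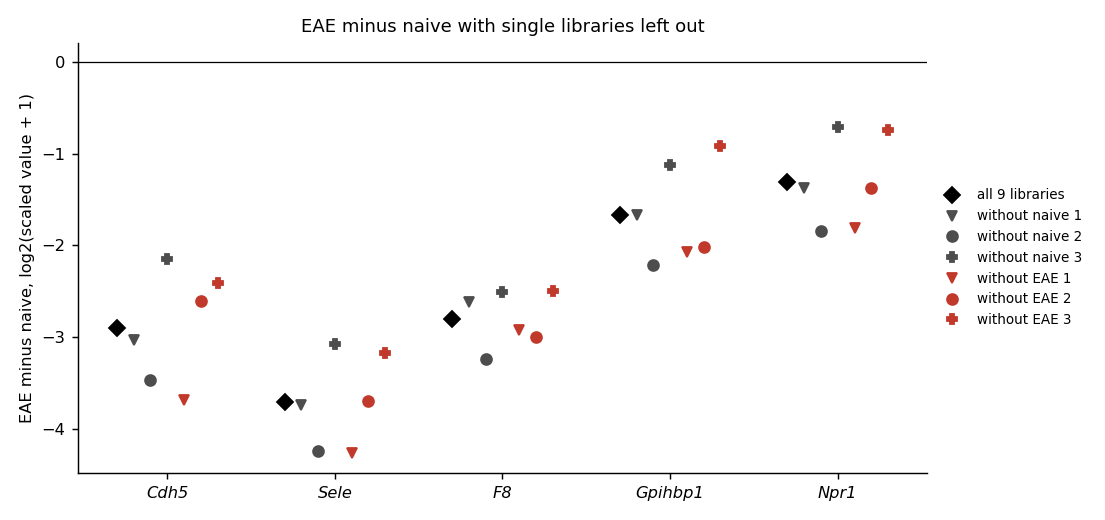
EAE minus naive difference on the log2(scaled value + 1) axis with all 9 libraries (diamonds) and with single naive (grey) or EAE (red) libraries left out. Values without naive 3 or EAE 3 are the closest to 0, at -0.71 and -0.74 for Npr1, and none crosses 0.

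The order of the naive libraries was not particular to these genes. Naive replicate 3 exceeded replicate 1, which exceeded replicate 2, in 25.1% of all tested genes and in 31.5% of the 3354 tested genes with a mean from 5 to 50. A value in naive replicate 3 at least 1.5 times that of every other library was less frequent, in 0.822% of all tested genes and 3.04% of those with a mean from 5 to 50. Of the present genes 4 met it (Cdh5, Sele, Gpihbp1 and Npr1), which is given as a description because they were chosen on these libraries.

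Treatment with SR59230A was compared with EAE alone on libraries of which the EAE ones had helped to choose the genes. None of the 5 was called by limma with Benjamini-Hochberg adjustment, where 0.00768% of all tested genes (1 gene) were called and 3.79% had an unadjusted p under 0.05. All 3 treated values of F8 exceeded all EAE values, which held for 7.87% of all tested genes. Its log2 fold change was 1.51 ± 0.57 with a 95% interval from 0.27 to 2.75 (limma unadjusted p = 0.021, adjusted p = 0.998). Low values in these same EAE libraries had chosen F8.

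The remaining genes had wide intervals in that comparison, so that neither a difference nor its absence was shown. Cdh5 had a log2 fold change of 0.88 ± 0.80 (95% interval -0.86 to 2.63) and Sele one of 0.17 ± 0.87 (-1.72 to 2.07). Gpihbp1 and Npr1 had negative values, at -1.10 ± 0.78 (-2.79 to 0.60) and -1.05 ± 0.71 (-2.59 to 0.49). The adjusted p was 0.998 for each by limma with Benjamini-Hochberg adjustment, and treated and EAE libraries overlapped in all 4 genes.

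A list of 43 further endothelial genes, chosen as less typical of blood progenitors, was examined in the same way. Of these, 29 were in the table and 25 were tested. Some were nonetheless abundant in these LSK libraries, with Adgrl4 at a naive mean of 3892. In EAE against naive mice 2 fell and 2 rose, beside 5.32% lower and 8.62% higher among all tested genes. The median log2 fold change of the list was -0.44, against -0.01 over all tested genes and -0.31 over those with a mean under 50. Emcn (endomucin, a sialomucin of venous endothelium that stem cells also carry) fell by 0.61 ± 0.12 (adjusted p = 0.00579), and Calcrl (the adrenomedullin receptor) fell by 0.44 ± 0.11 (adjusted p = 0.0258). Bmx, a non-receptor tyrosine kinase gene of endothelial and myeloid cells, rose from 4.23 ± 2.14 to 40.1 ± 16.0 (adjusted p = 0.00291), and Esm1, which encodes the secreted proteoglycan endocan, rose from 2.22 ± 3.00 to 22.6 ± 17.8 (adjusted p = 0.0189; limma with Benjamini-Hochberg adjustment for all 4 genes).

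The endothelial receptor genes Stab1, Stab2 and Kdr were not called in EAE against naive mice and were singled out after their values had been seen. Stab1, a scavenger receptor gene of sinusoids, stood at 89.5, 31.3 and 191 in naive, 44.9, 20.4 and 15.6 in EAE and 18.1, 30.2 and 24.2 in treated EAE libraries. Stab2, its close relative, stood at 31.5, 18.0 and 124, then 22.4, 1.02 and 6.22, and then 26.2, 42.3 and 13.2. Kdr, which encodes the VEGF receptor 2, stood at 40.7, 18.0 and 72.3 in naive and between 5.04 and 17.6 in all immunized libraries. Naive replicate 3 was the highest library for all 3 genes, with naive replicate 2 close to or within the immunized range. Since these genes were singled out on seen values, nothing about the list is read from this. Ecscr, Thbd, Podxl, Icam1, Esm1 and Bmx of the same list were highest in an immunized library. Apln and Emcn were highest in naive replicate 1, and Cyyr1 and Nos3 in naive replicate 2. Unlike the chosen genes, Stab2 had a treated library above naive replicates 1 and 2.

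Among the 25 tested genes of this list, 16 had their highest value in naive replicate 3. That held for 15.4% of all tested genes and 25.6% of those with a mean from 5 to 50. In 12 genes naive replicate 3 reached at least 1.5 times the mean of the other naive libraries. The same held for 4.86% of all tested genes and 16.3% of those with a mean from 5 to 50. Other lists described below had such genes too: 3 of 6 for mature blood cells, 3 of 10 for lipolysis, 3 of 14 for coagulation and 2 of 10 for megakaryocytes. The stromal list had 1 of 6, the natriuretic peptide list 1 of 11, and the junction and selectin lists 0. These shares are descriptions of 1 library. The summed level of the 29 genes was 7359, 6295 and 8124 in naive, 6595, 6206 and 6231 in EAE and 5948, 5863 and 5760 in treated EAE libraries. Adgrl4 and Calcrl made up most of it. Without them the sum was 1451, 1094 and 1980 in naive, 1121, 952 and 996 in EAE and 943, 1033 and 1016 in treated EAE libraries, with overlap between naive replicate 2 and EAE replicate 1. Of the 29 genes, 4 were at 0 in at least 1 library (Ptprb, Fabp4, Esm1 and Ushbp1). Many low vessel genes, but not the whole list, were thus highest in the same library as the chosen genes, and the part of endothelial cells or their RNA in these differences was not tested.

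**Figure D4:**
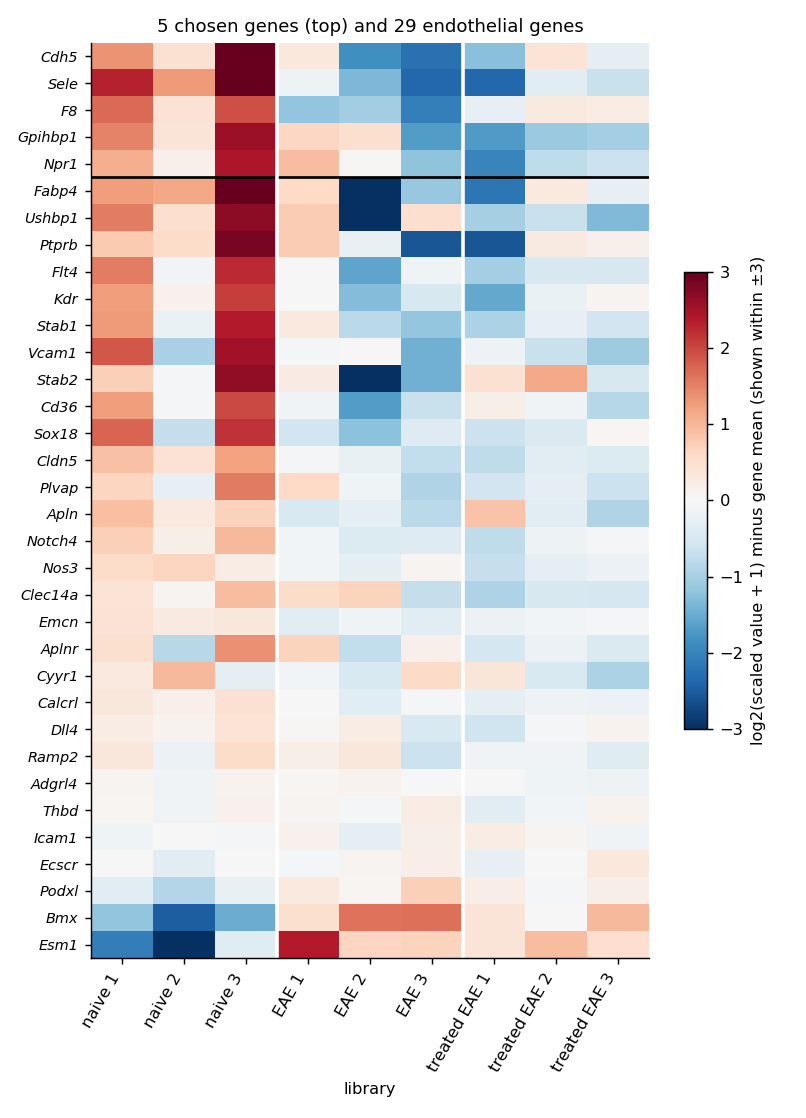
log2(scaled value + 1) of each gene minus its own mean over the 9 libraries, with the 5 chosen genes above the black line and the 29 endothelial genes of the table below it, sorted by the naive minus immunized difference. Naive 3 is the reddest column for most low vessel genes such as Stab1, at 191, whereas Bmx and Esm1 at the bottom are higher in immunized mice.

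The count of endothelial genes that fell depended on single libraries. It was 1 (Emcn) without naive replicate 3 or naive replicate 1, 8 without naive replicate 2, 9 without EAE replicate 1, 6 without treated EAE replicate 1 and 4 without treated EAE replicate 2, while the count that rose stayed at 2 in each of these fits. In treated EAE against naive mice 3 genes fell and 2 rose, beside 5.04% lower and 9.3% higher among all tested genes. The count that fell was 1 without naive replicate 1, 2 without naive replicate 3, 8 without naive replicate 2, 6 without EAE replicate 1 and 5 without EAE replicate 2 or 3. The 3 were Emcn, Calcrl and Cldn5, the claudin gene of endothelial tight junctions, which fell by 1.34 ± 0.37 (limma with Benjamini-Hochberg adjustment, adjusted p = 0.0342). Cldn5 lost its call without naive replicate 1 or naive replicate 3. The genes that rose were Bmx and Esm1 again, and the call of Esm1 ended without naive replicate 1, naive replicate 2 or any one of the treated libraries. Treated against untreated EAE mice gave 0 calls in the list.

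A second list held 26 endothelial genes that stem cells also express, all of them tested. In EAE against naive mice 9 fell and 2 rose, beside 5.32% lower and 8.62% higher among all tested genes, and the median log2 fold change was -0.22. Mmrn1 (multimerin 1) fell by 1.37 ± 0.13 (adjusted p = 8.41e-05), the guidance receptor gene Robo4 by 1.07 ± 0.13 (adjusted p = 0.000437) and the lectin-like receptor gene Cd93 by 0.54 ± 0.09 (adjusted p = 0.00273; limma with Benjamini-Hochberg adjustment for all). Ly6e and Ly6a rose, by 0.43 ± 0.11 (adjusted p = 0.0226) and 0.45 ± 0.12 (adjusted p = 0.0255), calls that ended without scaling, with upper-quartile scaling and without naive replicate 1. Naive replicate 3 did not stand out here: 4 of the 26 genes had their highest value in it, and 0 reached 1.5 times the mean of the other naive libraries. Mmrn1, for instance, was 374, 351 and 317 in the naive libraries.

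The partners of each protein were described from lists of their own, with calls for EAE against naive mice by limma with Benjamini-Hochberg adjustment. Beside each count stand the same shares of all tested genes, 5.32% lower and 8.62% higher, and with lists this short nothing particular to a list is read from its count. Of 8 tested genes around the cadherin junction, 3 fell and none rose: Ctnna1 (alpha-catenin) by 0.54 ± 0.09 (adjusted p = 0.00349), Jup (plakoglobin) by 0.58 ± 0.12 (adjusted p = 0.0107) and F11r (JAM-A) by 0.59 ± 0.13 (adjusted p = 0.0129). Unlike Cdh5, these were evenly expressed within groups, with Jup at 311 ± 5.66 in naive and 209 ± 19.4 in EAE mice. The median over the 8 genes was -0.08.

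Selp, which encodes another selectin, went the opposite way to Sele. Of 13 tested genes of selectins, ligand carriers and ligand-building enzymes, 4 rose and none fell, with a median of 0.14. Among all tested genes 8.62% were called higher and 5.32% lower. Selp (P-selectin, of platelets and endothelium) stood at 143, 142 and 176 in naive, 950, 1115 and 928 in EAE and 878, 763 and 838 in treated EAE libraries. It rose by 2.70 ± 0.11 in EAE mice (adjusted p = 1.22e-07), with no overlap between immunized and naive libraries. St3gal4, a sialyltransferase gene, rose by 0.37 ± 0.09 (adjusted p = 0.0148). The difference between Sele and Selp was not tested.

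**Figure D5:**
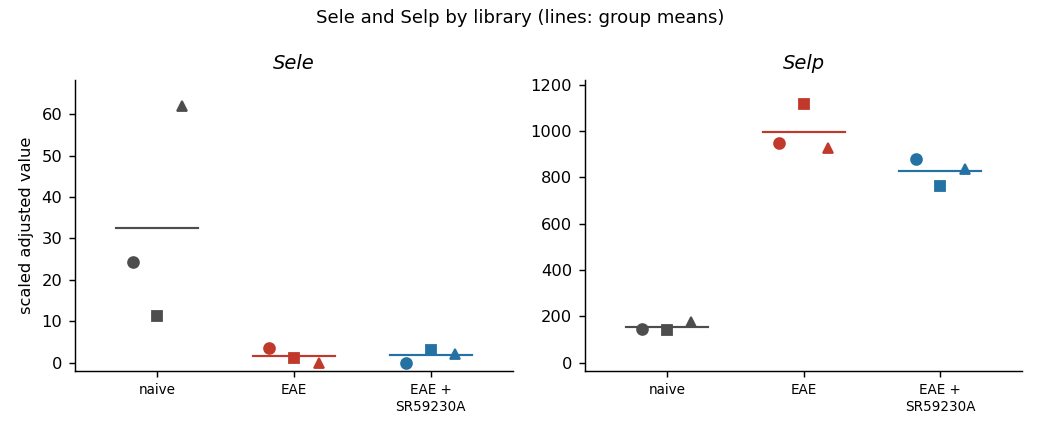
Scaled adjusted values (linear axes on separate scales that include 0) of Sele and Selp in the 9 libraries, with lines at group means. Sele is highest in the naive mice, reaching 62.0, while Selp is higher in all 6 immunized libraries than in any naive library.

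Of 14 tested coagulation genes around factor VIII, 2 rose and 1 fell, with a median of 0.35. The shares of all tested genes, 8.62% higher and 5.32% lower, stand beside this count and those of the lipolysis and natriuretic lists. F13a1 (factor XIII A chain, a gene of monocytes and megakaryocytes) rose by 3.58 ± 0.19 (adjusted p = 5.33e-07) and F10 (factor X) by 2.35 ± 0.42 (adjusted p = 0.00417), whereas Gas6, a ligand of TAM receptors, fell by 1.07 ± 0.24 (adjusted p = 0.0125). Vwf (von Willebrand factor, the plasma carrier of factor VIII) was 133 ± 19.4 in naive and 178 ± 6.06 in EAE mice and was not called. Vwf was named after its value was seen. Of 10 tested genes of lipoprotein lipolysis, Vldlr (the VLDL receptor) rose by 2.08 ± 0.10 (adjusted p = 4.09e-07) and Scarb1 (a receptor for HDL) by 0.70 ± 0.09 (adjusted p = 0.000535), none fell, and the median was 0.29. Of 11 tested natriuretic peptide and cyclic GMP genes, 3 fell and none rose, and the median was -0.29. These were Prkg1 (cyclic GMP-dependent kinase) by 1.19 ± 0.17 (adjusted p = 0.00117), Gucy1a3 (a subunit of soluble guanylyl cyclase) by 1.17 ± 0.18 (adjusted p = 0.00196) and Npr2 (the receptor for C-type natriuretic peptide) by 0.61 ± 0.13 (adjusted p = 0.00933).

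Markers of other cell types did not share 1 pattern. Their calls in EAE against naive mice stand beside 5.32% lower and 8.62% higher among all tested genes. Of 6 tested stromal genes 1 rose (Pdgfrb, a receptor of perivascular cells, by 0.38 ± 0.09, adjusted p = 0.0186) and none fell. The stromal list, with a median of -0.02 and most of its sum from Pdgfrb, summed to between 1297 and 1519 in naive, 1688 and 1771 in EAE and 1679 and 1703 in treated EAE libraries. Of 10 tested megakaryocyte genes 1 rose (Itga2b, the integrin alpha IIb gene, by 0.56 ± 0.11, adjusted p = 0.00744) and 1 fell. That list summed to between 2363 and 2534 in naive, 1894 and 2245 in EAE and 1964 and 2385 in treated EAE libraries. Of 6 tested genes of mature blood cells, Klrb1c rose by 1.45 ± 0.21 (adjusted p = 0.00123) and Itgam (CD11b) by 0.98 ± 0.15 (adjusted p = 0.00206; limma with Benjamini-Hochberg adjustment throughout), and none fell. The other 4 had negative log2 fold changes, the median was -0.28, and Itgam made up most of the sum. They summed to between 801 and 1199 in naive, 1519 and 1706 in EAE and 1373 and 1931 in treated EAE libraries. Their part in the differences of the 5 genes was not tested.

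The genes most like the mean of the 5 were sought among 10810 tested genes with a mean of at least 20, by Pearson correlation over the 9 libraries. The 10 closest were Pskh1, Sepp1, Armc7, Pfkm, Nedd4, Rdh14, Hyal3, Cldn5, Zfp507 and Gm4969, with r from 0.971 to 0.994. These r were picked as the highest among 10810 genes over only 9 libraries. The linear relations remove 2 directions in which libraries could differ, all values share the same libraries, and no p is given. Cldn5 is the one member of the 2 endothelial lists among them, at 33.6, 24.7 and 42.2 in naive, 17.1, 15.3 and 10.4 in EAE and 10.1, 14.1 and 13.2 in treated EAE libraries. The likeness was in order and not in size. Pskh1, a kinase gene, was 370 ± 35.9 in naive and 281 ± 27.0 in EAE mice, and Sepp1 (selenoprotein P) was 3653 ± 503 and 2659 ± 292. For single genes the closest were 9930104L06Rik and Dnajb14 for Cdh5, Pskh1 and Rdh14 for Sele, Inpp5k and Lpcat1 for F8, Pex6 and Srr for Gpihbp1, and Rbbp6 and Zfp873 for Npr1, with r from 0.971 to 0.996.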

How the data were processed

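For 9 libraries the authors deposited whole numbers for 14940 genes, and these values are a score: adjusted expression, not read counts. The submitters' processing notes name DESeq2 with no version or role, while aligner, counter, genome build and annotation were not given in the sources used here. Among 4577 genes averaging 500 or more, 2 components of the log values held at most 7.65e-05% of the variance each, against 2.75% to 60.5% for the other 6, which independent counts cannot give. At least 99.4% of each lay within groups. Per the labels' protocols, the RNeasy micro kit served for RNA extraction.

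Genes with a deposited value of at least 10 in 3 libraries (13018) were divided by median-of-ratios factors (0.909 to 1.11) and fitted as log2(value + 1) with limma-trend (limma 3.58.1, R 4.3.3), 2-sided, with group coefficients and the 2 missing directions as covariates (4 residual degrees of freedom). All 5 genes passed the filter, mostly through their naive values: Sele and F8 reached 10 in the 3 naive libraries alone, and Gpihbp1 in 3 libraries in all. The labels describe separate mice, and replicates were numbered in accession order. The 5 genes, the lists and the settings were chosen with earlier results of these data known. Besides the 5 genes, the text names up to 3 called genes per list and direction and the genes of highest correlation, and some called genes of the lists are not reported here. Promoter sequences are RefSeq's (GRCm38.p6). Sele, F8 and Npr1 had an entry, and that of F8 lies in an exon of a longer annotated transcript and is not shown.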

Additional observations from a re-analysis of the deposited data

How the results depend on the processing

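No paired analysis was possible because the labels give the groups no shared replicate numbers. All 5 genes had a negative log2 fold change against naive mice in both immunized groups under each of the 16 alternatives that could be fitted for them (pseudocount, filter, scaling, model terms, libraries). Since the naive and EAE libraries chose the genes, nothing is read from this sign. With a filter of 50 no member could be fitted. In treated EAE against EAE, Sele ranged from -0.36 to 0.77 with 1 library left out and turned negative without EAE replicate 3 (-0.36), treated replicate 2 (-0.23) or treated replicate 3 (-0.06). Calls of the 5 genes ranged from 2 to 3 for EAE against naive and from 1 to 4 for treated EAE against naive with 1 library left out. With only the 2 groups compared, calls numbered 3 for EAE against naive and 5 for treated EAE against naive.

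Endothelial genes that fell in EAE numbered 4 with a pseudocount of 10, 1 without scaling, 4 with upper-quartile scaling, 9 without terms for the missing directions, 6 with only the 2 groups and 1 to 9 with 1 library left out. Those that rose numbered 0 with a filter of 50. In the list shared with stem cells those that rose numbered 0 without scaling and with upper-quartile scaling, and 0 to 3 with 1 library left out. All tested genes called lower in EAE (693) numbered 453 without scaling, 1477 without the terms, 1115 with 2 groups and 439 to 1009 with 1 library left out. Those called higher (1122) numbered 606 without scaling, 702 with upper-quartile scaling and 1955 without the terms. For treated EAE against naive, calls lower (656) numbered 1097 with upper-quartile scaling, 1721 without the terms, 1976 with 2 groups and 339 to 1312 with 1 library left out, and calls higher (1211) numbered 489 without scaling, 762 with upper-quartile scaling, 2123 without the terms, 2433 with 2 groups and 848 to 1932 with 1 library left out. With 2 groups, 1 gene was called lower in treated EAE against EAE. The cause of these changes was not tested. With values near 0 and depth unknown, changes in low genes cannot be given a counting error.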
